A study of Mus musculus with 12 samples.

Results

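The 4 Hox gene clusters of the mouse were examined for open chromatin in intestinal epithelial cells sorted by a Sox9EGFP reporter. Each cluster was defined by a fixed window on mm9: chr6:52090000-52230000 for HoxA, chr11:96040000-96240000 for HoxB, chr15:102740000-102880000 for HoxC and chr2:74490000-74620000 for HoxD. All consensus peaks that overlapped a window were taken, a rule that uses position only. The windows held 54 of the 82365 open regions that result from merging the peaks of all populations (19 in HoxA, 12 in HoxB, 10 in HoxC and 13 in HoxD). Together they span 610 kb and carry 38 listed Hox genes.

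Intestinal epithelium of C57Bl/6 mice was used, and the populations are named by the level of the Sox9EGFP reporter: Sox9 Negative, Sox9 Sublow, Sox9 Low and Sox9 High. There were 3 Omni-ATAC libraries for each, and the record of each library gives 12000 cells collected. Omni-ATAC marks accessible DNA by the insertion of Tn5 transposase. The labels used here give no age and do not say whether libraries came from separate animals. In work with this reporter, Low cells are enriched for stem cells of the crypt base, Sublow for dividing progenitors, High for secretory cells such as enteroendocrine cells, and Negative for mature cells. The lists hold no gene values, so these identities were not checked against marker genes.

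Each population is represented by 1 consensus list, which gives the position of each peak and no height, read count or value per library. Depth is therefore unknown, no value below has a replicate error, and no test across samples could be made. Exact binomial intervals of 95% are given for shares. They cover counting error only and treat regions as independent, which neighbours in a cluster need not be. A region missing from a list had no consensus peak there, which does not show that its chromatin was closed. In sorted bulk cells, a site open in few cells and a site weakly open in many cannot be told apart.

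Hox genes encode homeodomain transcription factors that give cells their position along the body axis. In mammals they lie in 4 clusters that arose by duplication, and genes at matching places in different clusters form paralog groups, numbered from group 1 at one end to group 13 at the other. Genes of low number are generally active earlier and farther forward in the embryo, and genes of high number later and farther back, an order known as collinearity. In the gut, the group 13 genes Hoxa13 and Hoxd13 are known for their role in the hindgut. Polycomb proteins hold silent parts of the clusters in a compact state.

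The listed genes run from Hoxa2 to Hoxa13 in HoxA (10 genes), from Hoxb1 to Hoxb13 in HoxB (10 genes), from Hoxc4 to Hoxc13 in HoxC (9 genes) and from Hoxd1 to Hoxd13 in HoxD (9 genes). Gene order was read from a RefSeq table of GRCm38.p6. The group 1 end lies at the lower positions of the window in HoxA and at the higher positions in HoxB, HoxC and HoxD. HoxC begins with group 4, and its end on that side is called the group 1 end for brevity. Because the peaks are on mm9 and the gene table is on GRCm38.p6, no peak was assigned to a gene. Where the outermost genes lie within a window was not determined, so a region near an edge is not placed at a gene. Places within a cluster are given as the distance from the window edge at the group 1 end to the near side of a region, unless an end is named.

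The clusters also carry microRNA genes, and these are shown because paralogs in different clusters share a seed. The mature sequences are from RefSeq (GRCm38.p6), with the seed, bases 2 to 8, in capitals. Mir10a lies in HoxB and Mir10b in HoxD, and the 2 have the same seed. Mir196b lies in HoxA, Mir196a-1 in HoxB and Mir196a-2 in HoxC, and these 3 have another, with the same mature miR-196a-5p from 2 genes.
mmu-miR-10a-5p: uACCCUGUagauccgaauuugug
mmu-miR-10b-5p: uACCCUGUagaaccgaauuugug
mmu-miR-196a-5p: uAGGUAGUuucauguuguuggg
mmu-miR-196b-5p: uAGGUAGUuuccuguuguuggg
Peaks were not assigned to these genes either, so the sequences show what the clusters hold and are linked to no peak.

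The Negative list held by far the fewest peaks in the Hox clusters. There were 17 Hox peaks in Negative, while Sublow had 40, Low 39 and High 39. The lists as a whole were closer in length, at 45461 peaks for Negative, 52113 for Sublow, 58356 for Low and 54395 for High. Sublow thus held 2.35 times as many Hox peaks as Negative, against 1.15 times over the whole lists. The ratio was 2.29 for Low against 1.28, and 2.29 for High against 1.20. In bases the contrast was wider. Negative peaks covered 4936 bp of the clusters, Sublow peaks 15430 bp, Low peaks 15982 bp and High peaks 14264 bp. These bases were 3.13 times those of Negative for Sublow, 3.24 times for Low and 2.89 times for High, where the whole lists gave 1.33, 1.40 and 1.20 times.

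As a share of its own list, the Hox clusters made up 0.0374% of Negative peaks (exact 95% interval 0.0218 to 0.0599%). The share was 0.0768% for Sublow (0.0548 to 0.105%), 0.0717% for High (0.0510 to 0.0980%) and 0.0668% for Low (0.0475 to 0.0913%). The interval of Negative overlapped those of the other 3 lists. Per 100 kb, the windows held 2.79 Negative, 6.56 Sublow, 6.39 Low and 6.39 High peaks. The mean over 100 kb windows of the autosomes and the X chromosome was 1.72, 1.97, 2.21 and 2.06 peaks. Every list was thus denser in the pooled Hox clusters than on average. The pooled density was 1.62 times the mean for Negative, 3.32 times for Sublow, 2.89 times for Low and 3.10 times for High. By cluster, Negative was below its chromosome in HoxB (2 against 2.81 per 100 kb) and HoxC (0.714 against 1.74). It was above its chromosome in HoxA (5.71 against 1.66) and HoxD (3.08 against 1.85). With each list limited to its widest 45461 peaks, the Hox windows held 17 Negative, 32 Sublow, 27 Low and 33 High peaks.

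**Figure D1:**
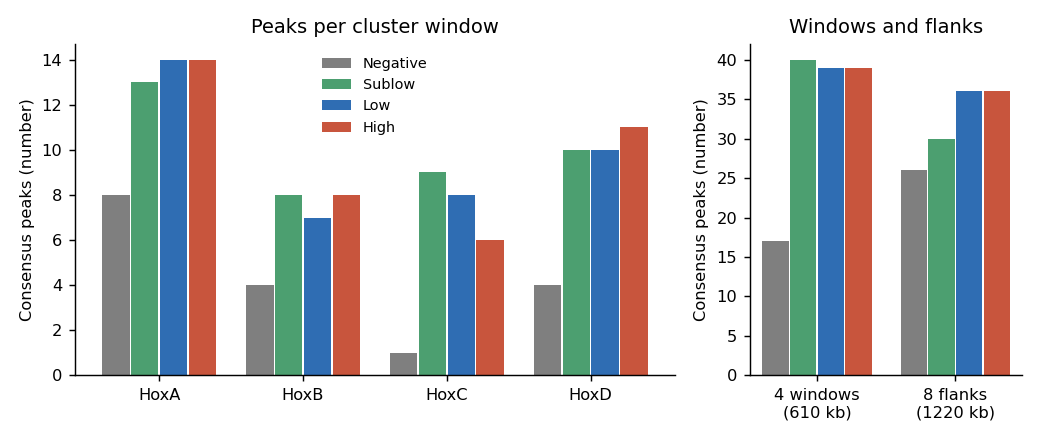
Number of consensus peaks (vertical axes, starting at 0) in each cluster window (left) and in all 4 windows and their 8 flanks of the same lengths (right), with 1 bar per list. The Negative bar is the lowest in each cluster, and stands at 17 against 39 to 40 over the windows but at 26 against 30 to 36 over the flanks.

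The lists were closer in the DNA beside the clusters. Flanks of the same length as each window were taken on both sides, 1220 kb in all. They held 26 Negative, 30 Sublow, 36 Low and 36 High peaks. The ratio to Negative there was 1.15 for Sublow, 1.38 for Low and 1.38 for High. The difference between windows and flanks was not tested, and single flanks varied. On the group 1 side of HoxA, Negative held 1 peak against 4 for Sublow, 6 for Low and 5 for High. On the group 13 side of HoxB, which held the most flank peaks, Negative had 11, Sublow 12, Low 15 and High 13.

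The clusters differed in how many peaks they held and in how far Negative fell behind. HoxA was the densest in each list, with 8 Negative, 13 Sublow, 14 Low and 14 High peaks. This is 5.71 peaks per 100 kb for Negative and 9.29 to 10 for the others, where chromosome 6 as a whole had 1.66 to 2.16. HoxD came next, with 4 Negative, 10 Sublow, 10 Low and 11 High peaks. HoxB, the longest window, held 4 Negative, 8 Sublow, 7 Low and 8 High peaks. Its 2 to 4 peaks per 100 kb were near the level of chromosome 11, which ran from 2.81 to 3.45.

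HoxC had the smallest share of its bases covered in each list. A single Negative peak of 149 bp was listed there, against 9 Sublow, 8 Low and 6 High peaks. Negative peaks covered 0.106% of the HoxC window, Sublow peaks 1.36%, Low peaks 1.455% and High peaks 0.908%. For comparison, HoxA was covered to 1.55% by Negative and to 3.69 to 4.15% by the other lists. The HoxC peaks were also narrow. Their median width was 195 bp for Sublow, 213 bp for Low and 205.5 bp for High, where whole-list medians were 464, 433 and 383 bp. No HoxC peak reached 500 bp. Among the peaks of at least 200 bp, HoxC kept 0 Negative, 4 Sublow, 4 Low and 4 High peaks. Under 200 bp were 1 of 1 Negative, 5 of 9 Sublow, 4 of 8 Low and 2 of 6 High peaks of HoxC. In the whole lists, 17.8% of Negative, 11.4% of Sublow, 13.1% of Low and 17.8% of High peaks were.

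Pooled over the clusters, Hox peaks were narrow, though not in HoxD. Over the 4 clusters the median width was 239 bp for Negative, 342.5 bp for Sublow, 356 bp for Low and 336 bp for High. These lay below the whole-list medians of 394, 464, 433 and 383 bp. In HoxD the medians were 393, 517.5, 522 and 459 bp, above the whole list for Sublow, Low and High. The Low median in HoxB, 450 bp, was above its whole list too. The widest Hox peak, 963 bp, was a High peak in HoxA at 63.7 kb (chr6:52153668-52154630), where the Sublow and Low peaks measured 296 and 265 bp. Of the 17 Negative peaks 2 reached 500 bp, both in HoxD. Of the 40 Sublow peaks 13 did, of the 39 Low peaks 14 and of the 39 High peaks 7. In the whole lists, 37.2% of Negative, 45.9% of Sublow, 41.9% of Low and 36.1% of High peaks did.

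To see which populations had a region in common, the peaks of the 4 lists were merged where they overlapped by at least 1 bp or touched. Of the 54 Hox regions, 11 were held by all 4 lists, a share of 20.4% (exact 95% interval 10.6 to 33.5%), against 33.1% of all regions of the genome. Another 13 were held by Sublow, Low and High and missing from Negative alone. This share of 24.1% (13.5 to 37.6%) compares with 7.49% of all regions, which lies below its interval. Sublow and Low alone shared 11 regions, also 20.4%, against 7.18% of all regions. The commonest kinds of Hox region other than those of all lists thus both lacked Negative. Both counts were lower with each list limited to its widest 45461 peaks, which left 47 Hox regions. Then 8 were missing from Negative alone, 17.0% (7.65 to 30.8%) against 5.49% of all regions. Sublow and Low alone shared 6, 12.8% (4.83 to 25.7%) against 5.52%, a background inside the interval. With peaks joined only where they overlapped by 50% of both, 6 of 66 Hox regions were held by all 4 lists, 9.09% (3.41 to 18.7%) against 24.8%.

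**Figure D2:**
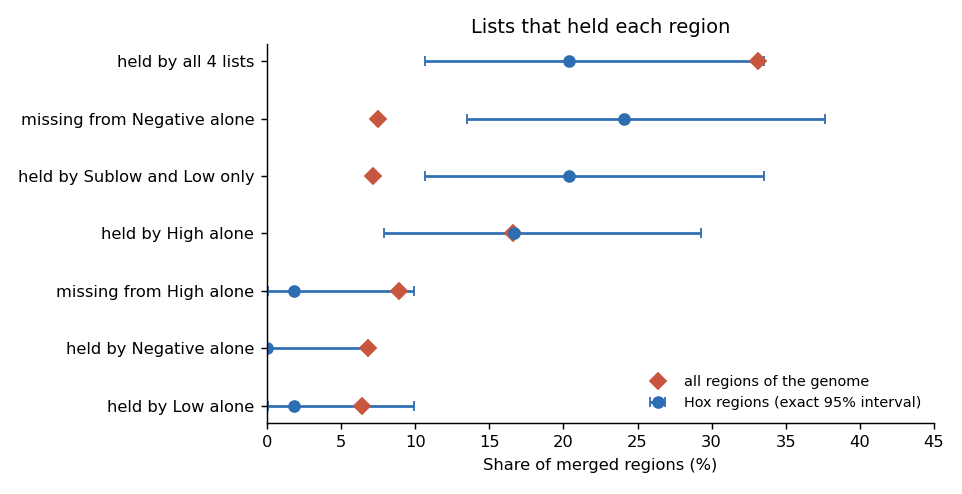
Share of merged regions (%, horizontal axis) by the lists that held them. Circles are the 54 Hox regions with exact 95% intervals, which cover counting error only, and diamonds all 82365 regions. Regions missing from Negative alone (24.1% against 7.49%) and held by Sublow and Low only (20.4% against 7.18%) have intervals to the right of the diamond; for the second kind this did not hold with lists of equal length.

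Regions of a single list were mostly those of High, at the rate seen elsewhere. High alone held 9 Hox regions, 16.7% (7.92 to 29.3%), against 16.6% of all regions. Low alone held 1 (background 6.41%) and Sublow alone 1 (background 2.06%). Negative alone held 0 of 54, against 6.82% of all regions. By 3 counts of 54, a count of 0 allows a share of up to 5.56%, and the exact interval ends at 6.60%. This 0 rests on joining peaks that overlap by 1 bp. Where 50% of both peaks had to overlap, Negative alone held 7 of 66 regions, 10.6% (4.37 to 20.6%) against 9.99%, and with lists of equal length 1 of 47, against 10.8%. Low and High alone shared 2 (background 5.98%), and Negative and Sublow alone shared 1 (background 3.17%). No region was missing from Sublow alone (background 0.357%) or shared by Negative and Low alone (background 0.318%). A single region was missing from High alone, where the background was 8.92%. It lay in HoxB at 100.5 kb (chr11:96139053-96139506), with a Negative peak of 257 bp, a Sublow peak of 444 bp and a Low peak of 450 bp.

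The 4 regions that remain skipped a level of the reporter, in that populations not adjacent by reporter level had peaks there without the one between. They made up 7.41% of the Hox regions (2.06 to 17.9%), against 2.20% of all regions, and all lay in HoxA or HoxC. Those in HoxA depended on the merging rule. With peaks up to 500 bp apart merged, they joined a neighbouring region and no longer skipped a level. Negative and High alone shared 2 (background 0.654%), the one in HoxA at 51.9 kb (chr6:52141889-52142198) with peaks of 239 and 310 bp. Beside it, at 50.8 kb, all 4 lists held a region. The Negative peak there measured 174 bp, the Sublow peak 710 bp, the Low peak 630 bp and the High peak 294 bp. In that region the Negative and High peaks shared no base. Sublow and High alone shared 1, in HoxC at 50.1 kb (background 0.345%), with peaks of 166 and 228 bp. The last was missing from Low alone (background 0.526%). It lay in HoxA at 119.998 kb (chr6:52209998-52210453), with a Negative peak of 150 bp, a Sublow peak of 446 bp and a High peak of 152 bp. The Negative and High peaks shared no base and were joined through the Sublow peak. A Low peak of 206 bp stood in the next region, at 120.8 kb.

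Seen from each list, the Hox regions of Sublow and Low were nearly the same set, as genome-wide, and Negative held a minority of them. Of the 40 Sublow regions, 36 were also in Low, 90% against 90.3% genome-wide, and 26 were in High, 65% against 66.0%. Negative held 14 of them, 35% (exact interval 20.6 to 51.7%) against 72.8%. Of the 39 Low regions, 12 were in Negative, 30.8% (17.0 to 47.6%) against 61.2%. Of the 39 High regions, 14 were, 35.9% (21.2 to 52.8%) against 53.3%. In the other direction, of the 16 Negative regions 14 were in Sublow, 87.5% against 84.9%, 12 in Low, 75% against 79.3%, and 14 in High, 87.5% against 64.3%. The small Negative set therefore lay for the most part inside the sets of the other lists. For Sublow and Low this was near the genome-wide share. For High it was above that share, which the exact interval of 61.7 to 98.4% still included.

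Narrow peaks were less often shared between lists genome-wide, so the same shares were read by peak width. Of 16 Sublow Hox peaks under 300 bp, 1 lay in a region with a Negative peak, where the genome-wide share was 43.8%. From 300 to below 600 bp it was 7 of 17, against 73.6%, and from 600 bp up 6 of 7, against 94.9%. For Low the numbers were 0 of 16 under 300 bp (background 33.0%), 6 of 14 (61.3%) and 6 of 9 (89.8%). For High they were 3 of 18 (31.2%), 6 of 14 (51.2%) and 5 of 7 (87.3%). Sharing of Low peaks with High was nearer the genome in each class, at 9 of 16 (43.4%), 9 of 14 (66.5%) and 8 of 9 (92.3%). For Sublow, Low and High, sharing with Negative was below the genome-wide share in each of the 3 width classes, though the widest class holds few peaks. Below 600 bp, High lay nearer its genome-wide share than Sublow and Low did. The width classes were chosen after the data were seen.

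Over the 4 clusters together, overlap over bases was lowest with Negative, which also covered the fewest bases. The Jaccard index, bases covered by both lists over bases covered by either, was 0.758 for Sublow and Low in the 4 clusters together, against 0.743 genome-wide. It was 0.453 for Low and High against 0.541, and 0.453 for Sublow and High against 0.504. With Negative the index was 0.278 for Sublow against 0.612, 0.239 for Low against 0.522, and 0.256 for High against 0.441. The index cannot exceed the bases of the shorter list over those of the longer. These low values therefore largely restate how few Hox bases Negative covered. Of its 4936 bp, 4435 bp lay in Sublow peaks, 4033 bp in Low peaks and 3913 bp in High peaks. By cluster, Low and High stood at 0.657 in HoxD but 0.398 in HoxA, 0.347 in HoxB and 0.344 in HoxC. Sublow and Low varied little, from 0.744 in HoxA to 0.772 in HoxD. In HoxC the Negative list covered 0 bp in common with Sublow or Low.

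Along the clusters, peaks neither filled the windows evenly nor stopped at a common place. In HoxA and HoxD, peaks ran to within 10 kb of the window edge at the group 13 end. In HoxC they stopped well before it, and in HoxB a long stretch without peaks separated 1 outlying region from the rest.

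**Figure D3:**
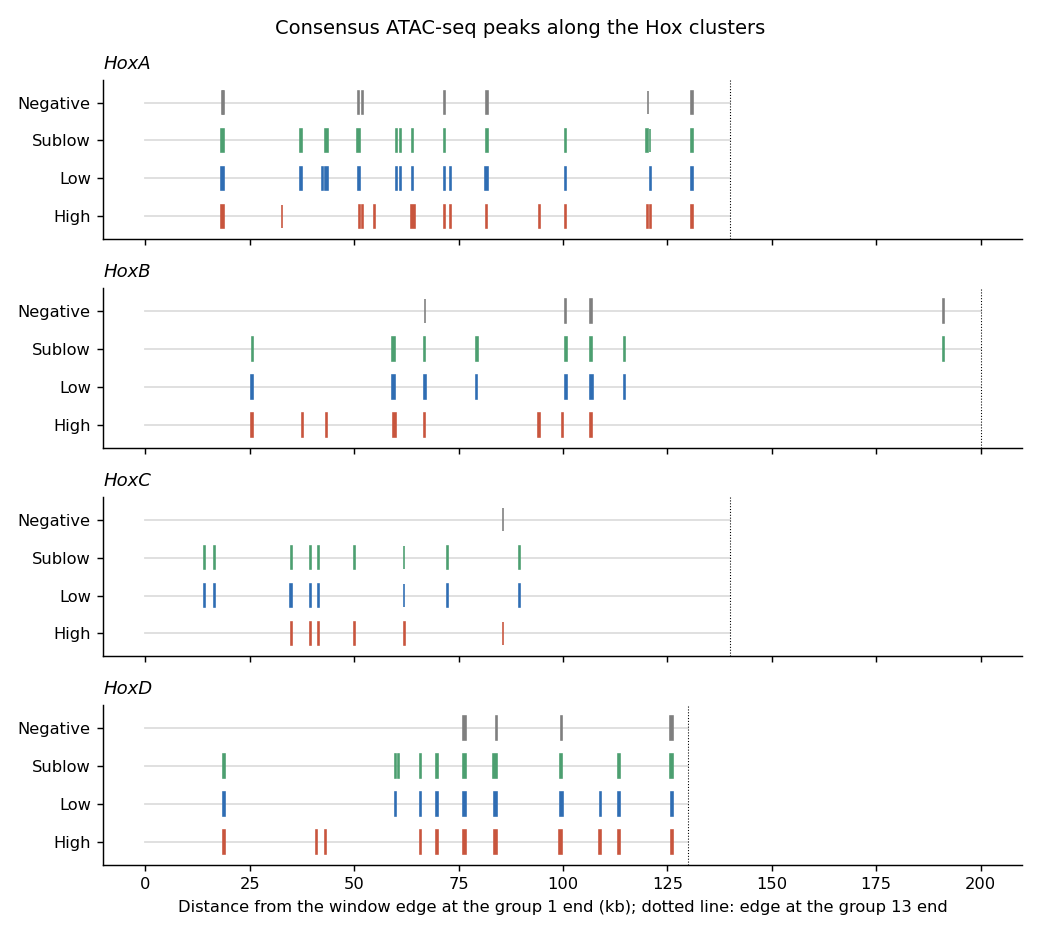
Consensus peaks of each list along the 4 windows, by distance (kb) from the window edge at the group 1 end. Each bar is 1 peak, drawn with an outline so that the narrowest can be seen. HoxC bars stop by 89.8 kb of 140 kb, and HoxB is empty between 115 and 191 kb.

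HoxA was open in all 4 lists near both ends. The first region began at 18.1 kb from the group 1 edge (chr6:52108135-52108964), where Negative had 2 peaks with 427 bp in all and the Sublow, Low and High peaks measured 781, 792 and 826 bp. The last region ended at 131 kb (chr6:52220600-52221162), nearest the group 13 edge of the window. The Negative peak there measured 482 bp, the Sublow peak 553 bp, the Low peak 526 bp and the High peak 467 bp, so this region was of like width in each list. The other 3 regions of all lists lay between, at 50.8, 71.5 and 81.4 kb. Between the first and last regions no list left more than 38.4 kb without a peak. The longest stretch between regions that was empty in every list was 19.2 kb, from 100.8 to 119.998 kb.

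Within HoxA, Sublow and Low shared 4 regions that neither Negative nor High held. They lay at 37.0, 43.0, 59.98 and 60.9 kb. The widest of them, at chr6:52132977-52133793, had a Low peak of 817 bp and a Sublow peak of 532 bp. High in turn held 3 regions alone, of 147 bp at 32.6 kb (chr6:52122628-52122774), 362 bp at 54.7 kb (chr6:52144658-52145019) and 207 bp at 94.2 kb (chr6:52184191-52184397). Low held 1 alone, of 230 bp at 42.2 kb (chr6:52132219-52132448). Regions missing from Negative alone lay at 63.7, 100.5 and 120.8 kb.

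In HoxB, the peaks fell into a group from 25.3 to 115 kb and 1 region at 191 kb, with 76.1 kb between them empty in every list. The main group ended at 107 kb for Negative and for High, and at 115 kb for Sublow and Low. The region at 191 kb (chr11:96048695-96048980), nearest the group 13 edge of the window, was held by Negative (286 bp) and Sublow (215 bp) only. Low thus had no peak in the last 85.1 kb of the window and High none in the last 93.05 kb. Toward the group 1 end, the first region, at 25.3 kb (chr11:96214300-96214715), was missing from Negative alone, and the Sublow, Low and High peaks measured 205, 340 and 416 bp. The widest HoxB region, 888 bp at 59.1 kb (chr11:96179999-96180886), was also missing from Negative alone. There the Sublow peak measured 617 bp, the Low peak 664 bp and the High peak 730 bp.

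HoxB had 4 of the 9 regions of High alone. They measured 236 bp at 37.5 kb (chr11:96202251-96202486), 229 bp at 43.2 kb (chr11:96196602-96196830), 372 bp at 94.0 kb (chr11:96145601-96145972) and 336 bp at 99.7 kb (chr11:96140013-96140348). The last lay beside the region that High alone lacked, so the High peak and those of the other 3 lists stood at neighbouring and separate places. All 4 lists met at 66.7 kb (chr11:96172777-96173293) and at 106 kb (chr11:96132897-96133635). At the second of these the Negative peak measured 361 bp, the Sublow peak 623 bp, the Low peak 739 bp and the High peak 390 bp.

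In HoxC, the regions lay between 14.1 and 89.8 kb, and the last 50.2 kb of the window held no peak in any list. The flank beyond it on the group 13 side, 140 kb long, held 0 peaks in each list. The first regions, at 14.1 kb (chr15:102865685-102865866) and 16.5 kb, on the side of Hoxc4, were held by Sublow and Low only, with peaks of 168 to 195 bp. The last, at 89.5 kb (chr15:102790189-102790544), was also held by Sublow (321 bp) and Low (356 bp) only. Between them 4 regions were missing from Negative alone, at 34.7, 39.4, 41.3 and 61.9 kb. The widest of these covered 509 bp (chr15:102844765-102845273), and its Sublow, Low and High peaks measured 353, 485 and 342 bp. The single Negative peak, at 85.6 kb (chr15:102794285-102794441), met a High peak of 113 bp and no other. The longest stretch between HoxC regions was 17.98 kb, from 16.7 to 34.7 kb, and 27.4 kb among peaks of at least 200 bp.

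In HoxD, Sublow, Low and High peaks began at 18.5 to 18.7 kb from the group 1 edge, while Negative peaks began at 76.1 kb. The first region (chr2:74600835-74601479), on the side of Hoxd1, was missing from Negative alone, and its Sublow, Low and High peaks measured 511, 645 and 469 bp. Beyond it, Sublow and Low held no peak until 59.8 kb, a stretch of 40.7 kb for Sublow and 40.6 kb for Low. High had 2 regions of its own in that stretch, of 157 bp at 40.96 kb (chr2:74578881-74579037) and 194 bp at 43.0 kb (chr2:74576806-74576999), and the longest stretch empty in every list was therefore 21.8 kb, from 19.2 to 40.96 kb. Both High peaks are under 200 bp, and among peaks of at least 200 bp the stretch was 40.6 kb. Sublow alone held 1 region, of 152 bp at 60.6 kb (chr2:74559238-74559389). The other regions missing from Negative alone lay at 65.9, 69.6 and 113 kb.

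All 4 lists held regions in the part of HoxD nearer the group 13 end. They met at 76.1 kb (chr2:74543128-74543935), 83.3 kb (chr2:74535752-74536655), 99.1 kb (chr2:74520064-74520868) and 126 kb (chr2:74493621-74494275). At 83.3 kb, the widest HoxD region, the Negative peak measured 212 bp, the Sublow peak 813 bp, the Low peak 724 bp and the High peak 692 bp. At 126 kb, nearest the group 13 edge, the Negative peak measured 574 bp, the Sublow peak 655 bp, the Low peak 513 bp and the High peak 613 bp. The Negative peak was thus by far the narrowest at the first of these places, and wider than the Low peak at the second.

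Over the 4 clusters, Negative peaks were rarest toward the group 1 end. When each window was divided into 3 equal parts, the part at the group 1 end held 17 regions. Of these, Negative held 1, Sublow 11, Low 12 and High 12. The 1 was the first region of HoxA. In the middle part, Negative held 10 of 27 regions, Sublow 21, Low 20 and High 18. The part at the group 13 end held 10 regions, of which Negative held 5, Sublow 8, Low 7 and High 9. Over the whole genome, 53.9% of merged regions were in the Negative list, 62.8% in the Sublow list, 69.8% in the Low list and 65.1% in the High list. Put by list, 12 of the 16 Negative regions lay nearer the group 13 end than the group 1 end, against 19 of 40 for Sublow, 19 of 39 for Low and 18 of 39 for High. This difference in place was not tested, and it rests on few Negative regions.

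**Figure D4:**
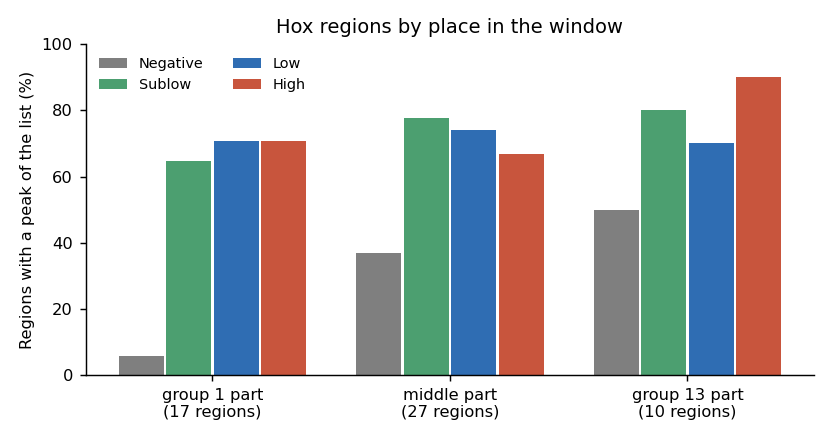
Share of Hox regions with a peak of each list (%, vertical axis from 0) in the 3 equal parts of the windows, pooled over the 4 clusters, with the number of regions under each part. The Negative bars stand for 1 of 17, 10 of 27 and 5 of 10 regions, and the bars of the other lists for 11 or 12 of 17, 18 to 21 of 27 and 7 to 9 of 10.

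Regions held by all 4 lists allow widths to be compared within a region, though peaks of a region need not all overlap. In HoxA at 50.8 kb, the Negative and High peaks shared no base and were joined through the Sublow and Low peaks. In the 10 such Hox regions with 1 peak per list, the median Negative peak was 312 bp wide, the median Sublow peak 593 bp, the median Low peak 606.5 bp and the median High peak 435 bp. In the 25643 such regions of the genome the medians were 529, 658, 643 and 565 bp. Negative had the narrowest peak in 7 of the 10. The same count was not taken genome-wide, where the Negative median was the lowest too. In both sets Negative and High lay below Sublow and Low, and the Negative median of the Hox regions stood farther below those of the other lists than it did genome-wide, with fewer regions behind it. This difference was not tested.

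**Figure D5:**
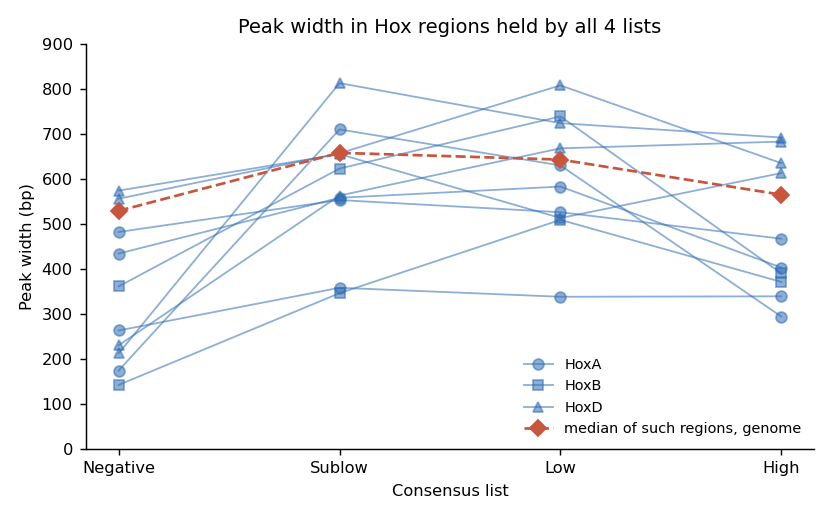
Peak width (bp, vertical axis from 0) in each list for the 10 Hox regions that all lists held with 1 peak each, with 1 line per region. The dashed line joins the medians of the 25643 such regions of the genome. Negative widths run from 142 to 574 bp and Sublow widths from 346 to 813 bp.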

How the data were processed

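Omni-ATAC libraries of 4 sorted populations, 3 per population, were represented by 1 consensus peak list each. The authors deposited these lists as chromosome, start, end and peak name, with no score, so the only values are positions. The submitters' processing notes name mm9, MACS2 2.1.2, Bowtie2 2.3.4, deepTools 2.5.2, Trim Galore 0.4.3 and Picard 2.10.3. Their settings, any Tn5 shift and the rule that combined libraries are not given in the sources used here. A stricter rule in 1 list would lower its peak number.

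Starts and ends were read as 1-based and inclusive. If the starts count from 0, each peak is 1 bp narrower than given here and starts 1 bp later. No peak crossed a window edge. Flank peaks were counted by midpoint. Regions named were, per cluster, the widest, those nearest each end, the longest empty stretch, those of 1 list and those missing from 1 list. Others were chosen after their values were seen. Members and lists were chosen with earlier results of these data known. Merging was tested on simulated, well separated regions. These held no peaks joined only through another list, so such cases were not tested. Alternatives were other rules for membership, overlap, peak width, window length and bin. Python 3.11.15, scipy 1.17.1 and matplotlib 3.10.9 were used. Peak sequences were not used here.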

Additional observations from a re-analysis of the deposited data

How the results depend on the processing

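No paired analysis was possible because the peak lists carry no value per library, and so no library could be left out. Negative had the fewest Hox peaks and the fewest covered bases in each of the 3 alternatives that could change these values. Taking peaks by midpoint changed none of them. Values other than the Jaccard index were taken to move when they changed by over 1.5-fold or left 0, and the index when it left its exact binomial interval over bases. By these rules 31 of 222 values moved. Bases within a peak are not independent, so the interval of the index is too narrow and small shifts of it count as moved. A reciprocal overlap of 50% left 6 regions held by all 4 lists and 7 by Negative alone. The Jaccard index of Negative was then 0.197 with Sublow, 0.147 with Low and 0.191 with High, and that of High 0.408 with Sublow and 0.425 with Low. Limited to the widest 45461 peaks, the lists had 8 regions missing from Negative alone, 6 held by Sublow and Low only and 1 by Negative alone. The index of Negative was then 0.303 with Sublow, 0.276 with Low and 0.263 with High, that of High 0.419 with Sublow and 0.463 with Low, and that of Low with Sublow 0.729. The Negative list is whole in this setting and the others are shortened. Peaks of at least 200 bp left a longest stretch with no peak of 27.4 kb in HoxC and 40.6 kb in HoxD, against 17.98 and 21.8 kb, and an index of Sublow of 0.271 with Negative and 0.434 with High, and of High with Negative of 0.266. Windows 10 kb longer at each end gave 1 region of Negative alone, and an index of Low of 0.228 with Negative, 0.745 with Sublow and 0.440 with High. HoxA had an empty run of 0 kb in bins of 20 kb, against 10 kb in bins of 10 kb. Of the peak counts of single clusters, 5 moved, all in HoxC. Depth is unknown, so whether a missing region was closed or missed cannot be told.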
